A study of Mus musculus with 18 samples.

Results

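The comparison described here asked whether mutant histone H3 K36M changed the same genes in blood-forming progenitors as in the intestine. It took the K36M effect in bone marrow (K36M minus wild type), subtracted the K36M effect in intestine, and tested the result gene by gene on raw read counts. The members were 8 of the 18 libraries of the series, 2 in each of 4 groups, and 11227 of 37620 listed genes, which were autosomal and passed the count filter in both tissues. The marrow groups, labelled BSPC, were Lin-, cKit+ bone marrow cells of wildtype mice (WT.1262 and WT.1266) and of K36M mice (H3K36M.1310 and H3K36M.1312). The intestine groups were dissociated intestinal cells of wildtype mice (WT.1476 and WT.1477) and of K36M mice (H3K36M.1485 and H3K36M.1553). All were C57B6/129 hybrid mice of 6 to 8 weeks that drank doxycycline at 2 mg/ml. The sources used here do not give the promoter or locus of the transgene, how long it was induced, or whether the wildtype mice carried part of the system. No mouse gave both tissues, so tissue, mice and preparation cannot be told apart. The p-values rest on the spread between the 2 mice within each group, pooled over the 4 groups.

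In a K-to-M histone a lysine that is normally methylated is replaced by methionine. H3K36M binds and inhibits the enzymes that methylate lysine 36, among them Setd2, Nsd1 and Nsd2, and so lowers this mark on the other histones of the cell. H3K36 methylation lies over the bodies of transcribed genes and in broad intergenic domains, where it keeps the Polycomb mark H3K27me3 away. Lin-, cKit+ marrow holds stem cells and the early progenitors of the myeloid and erythroid lines, and the intestinal epithelium renews itself from crypt stem cells into enterocytes, goblet, Paneth, tuft and enteroendocrine cells.

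Between 13396303 and 21417915 reads were counted in genes per library. The markers matched the labelled tissues. Kit, the receptor of the sort, had 436 and 464 CPM (gene counts scaled to library size) in wildtype marrow and 288 and 287 in K36M marrow. It had 2.76 to 4.79 CPM in intestine, while Vil1, the microvillus protein villin, had 1991 to 3438 CPM in intestine and at most 0.375 in marrow. The progenitor markers Cd34, Ptprc, Gata2, Spi1 and Myb were also lower in both K36M marrow libraries, and Runx1 overlapped. Whether the sorted cells differed in make-up was not tested. Xist, which is transcribed from the inactive X of females, had 2108 to 2720 CPM in the 4 marrow libraries and at most 3.28 in the 4 intestine libraries, and Y-linked Ddx3y had no count in marrow and 52.7 to 66.3 CPM in intestine. Sex therefore went with tissue, and its part in the results was not tested. Replicates lay further apart in intestine, with a median gap between the libraries of a group of 0.24 (wild type) and 0.36 (K36M) on the log2 scale against 0.14 and 0.11 in marrow. The summed level of 20 testis transcripts was 519.5 CPM in intestine of mouse WT.1476 and 54.9 to 106.1 in the other 3 intestine libraries. The summed level of 35 mitosis genes in intestine was 547.1 and 190.7 CPM in wild type and 142.0 and 560.8 in K36M, so it overlapped between the groups.

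Most genes called in 1 tissue were not called in the other, and the size of the K36M effect often differed. The effects differed in 2530 of 11227 genes (22.5%; edgeR's quasi-likelihood test, adjusted p under 0.05). In 1257 genes (11.2%) the K36M effect was higher in marrow than in intestine, and in 1273 (11.3%) it was lower. Of these, 925 and 1080 differed at least 2-fold. Within marrow, 2183 genes (19.4%) were called, 1073 (9.56%) higher and 1110 (9.89%) lower in K36M. Within intestine, 3797 genes (33.8%) were called, 1857 (16.5%) higher and 1940 (17.3%) lower. In both tissues and in the same direction, 667 genes (5.94%) were called, 307 higher (2.73%) and 360 lower (3.21%). In opposite directions 339 (3.02%) were called, 150 (1.34%) higher in marrow and lower in intestine and 189 (1.68%) the other way. A further 1177 genes (10.5%) were called in marrow alone, 2791 (24.9%) in intestine alone and 6253 (55.7%) in neither. WT and K36M libraries did not overlap in marrow in 41.3% (K36M higher) and 37% (lower) of all genes, and in intestine in 30.3% and 32.5%. Scaled by library size alone, the opposite calls divided 93 to 209. Across genes, the marrow and intestine effects had a Pearson r of 0.17 and a Spearman rho of 0.18, as a description over genes that share libraries.

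The counts within a tissue depend on how the replicate spread is shared. A single spread for all 8 libraries is wide for marrow and narrow for intestine, and with limma-voom weights per tissue 5483 genes were called in marrow and 1889 in intestine. The count of differing effects was then 2120, of which 1994 were among the 2530. Leaving out a marrow library lowered the count to 1140 without mouse WT.1262, 1480 without WT.1266, 1079 without mouse H3K36M.1310 and 1025 without H3K36M.1312. Leaving out intestine mouse H3K36M.1553 raised it to 3939. Of the 2530 genes, 1304 were called in intestine and not in marrow, 612 in marrow and not in intestine, 339 in both in opposite directions, 113 in both in the same direction and 162 in neither.

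**Figure D1:**
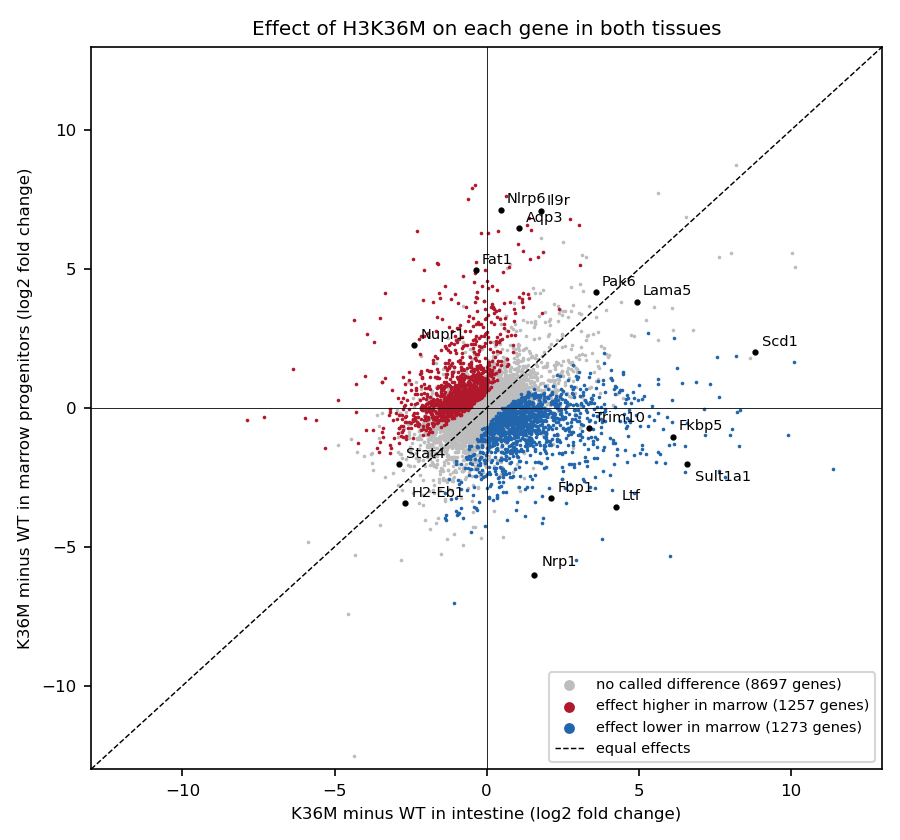
Each point is 1 of 11227 genes, with the K36M minus WT log2 fold change in intestine on the x axis and in marrow progenitors on the y axis. Red and blue points are the 1257 and 1273 genes whose effect was called higher or lower in marrow, the dashed line marks equal effects, and black points are genes described in the text.

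Several of the named genes with the most positive differences were nearly silent in wildtype marrow and active in intestine. From here on the CPM of single genes are scaled by library size and TMM factor, and are compared within a tissue only. Summed CPM of marker lists are scaled by library size alone, so they are not on the scale of the single genes. Nlrp6, an inflammasome receptor known from the intestinal epithelium, had 0.278 and 0.473 CPM in wildtype marrow and 54.5 and 53.6 in K36M marrow. In intestine it had 396.6 and 335.5 CPM in wild type and 390.6 and 620.4 in K36M. The marrow groups were far apart and the intestine groups overlapped, and the difference of effects was 6.68 ± 0.42 on the log2 scale (estimate ± SE, adjusted p = 0.00058). Fat1, an atypical cadherin, also rose in marrow. It had 0.174 and 0.372 CPM in wildtype marrow, 7.54 and 9.86 in K36M marrow, 388.7 and 408.8 in wildtype intestine and 299.3 and 323.3 in K36M intestine, and the effects differed by 5.31 ± 0.35. Its intestine groups did not overlap, K36M being lower, but the effect of -0.36 ± 0.19 there was not called. Aqp3, a water and glycerol channel, had 0.104 and 0.270 CPM in wildtype marrow and 18.2 and 16.2 in K36M marrow. It also rose in intestine, from 99.3 and 115.2 CPM to 199.2 and 251.0, so that the difference of 5.40 ± 0.39 came from the larger change in marrow.

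Il9r, the receptor chain for interleukin 9, had 0.278 and 0.135 CPM in wildtype marrow and 26.8 and 31.5 in K36M marrow. In intestine it had 0.850 and 1.59 CPM in wild type and 5.68 and 2.56 in K36M, a called rise of 1.78 ± 0.49 against 7.10 ± 0.55 in marrow. Hnf4a, a transcription factor of enterocytes, rose in marrow from 2.88 and 4.43 CPM to 33.4 and 29.7 and had 900.9 and 951.1 CPM in wildtype and 746.0 and 782.5 in K36M intestine. The difference for Hnf4a was 3.38 ± 0.29 (adjusted p = 0.0012). Dnase1, a secreted DNA-cutting enzyme, reached the same sign from the other tissue. It had 429.8 and 348.7 CPM in wildtype intestine and 5.58 and 6.77 in K36M intestine, a fall of 5.97 ± 0.22 on the log2 scale, and 4.08 to 6.22 CPM across the 4 marrow libraries. Tcrg-C1, a constant region of the T cell receptor gamma chain, had the largest positive difference by the naming rule, 8.65 ± 0.52. It has near-identical copies, so its value is uncertain.

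The promoters of Nlrp6 and of Fkbp5, described next, are shown because they differ in CpG content. The 250 bases before the RefSeq gene start (GRCm38.p6) are written 5′ to 3′, with each CpG in capitals. Nlrp6 (chr7:140920652-140920901, plus strand) has 3 CpG, Fkbp5 (chr17:28486150-28486399, minus strand) has 23, and the median over 8759 tested genes matched to the table is 17.
Nlrp6: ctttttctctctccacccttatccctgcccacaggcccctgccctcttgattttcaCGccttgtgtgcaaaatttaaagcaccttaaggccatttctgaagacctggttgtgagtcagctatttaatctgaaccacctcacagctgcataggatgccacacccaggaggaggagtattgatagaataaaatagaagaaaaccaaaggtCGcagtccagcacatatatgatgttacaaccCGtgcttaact
Fkbp5: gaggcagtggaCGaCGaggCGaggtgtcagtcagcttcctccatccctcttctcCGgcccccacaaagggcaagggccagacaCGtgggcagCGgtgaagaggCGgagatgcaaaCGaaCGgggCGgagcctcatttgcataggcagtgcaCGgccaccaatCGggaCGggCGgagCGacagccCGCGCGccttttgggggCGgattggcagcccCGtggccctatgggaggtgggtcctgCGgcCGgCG
Over whole groups the medians lay close together, with 17 CpG for the 1002 matched genes with a higher effect in marrow and 16 for the 1001 with a lower one.

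The named genes with the most negative differences rose in intestine, fell in marrow, or both. Fkbp5, an Hsp90 co-chaperone of the glucocorticoid receptor, had 11.6 and 11.5 CPM in wildtype intestine and 892.1 and 713.0 in K36M intestine. In marrow it fell from 139.0 and 145.6 CPM to 71.2 and 68.5. Replicates of Fkbp5 were close in all 4 groups, and its difference of -7.14 ± 0.23 had an adjusted p of 4.98e-05. Scd1, the desaturase that makes monounsaturated fatty acids, rose in both tissues but by very different amounts. It went from 3.86 and 1.87 CPM to 1761 and 943.0 in intestine and from 4.76 and 7.03 to 23.6 and 24.4 in marrow, a difference of -6.81 ± 0.58.

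Sult1a1, a sulfotransferase of phenols, had 0.458 and 0.375 CPM in wildtype and 46.3 and 36 in K36M intestine, and fell in marrow from 3.47 and 4.56 CPM to 0.520 and 1.48. Its difference was -8.60 ± 0.68. Nrp1, a co-receptor for semaphorins and VEGF, reached -7.54 ± 0.78 mainly through marrow, where 40.1 and 22.7 CPM in wild type stood against 0.594 and 0.370 in K36M. In intestine Nrp1 had 1.70 and 1.22 CPM in wild type and 6.30 and 2.48 in K36M, which did not pass the test. Col4a1, a chain of basement membrane collagen, had 105.8 CPM in mouse H3K36M.1485 and 9.74 in mouse H3K36M.1553 against 1.64 and 0.281 in wildtype intestine. Its difference of -6.55 ± 1.62 (adjusted p = 0.028) was not called without any 1 of the 4 marrow or 2 wildtype intestine libraries, or with limma-voom weights (adjusted p = 0.11).

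**Figure D2:**
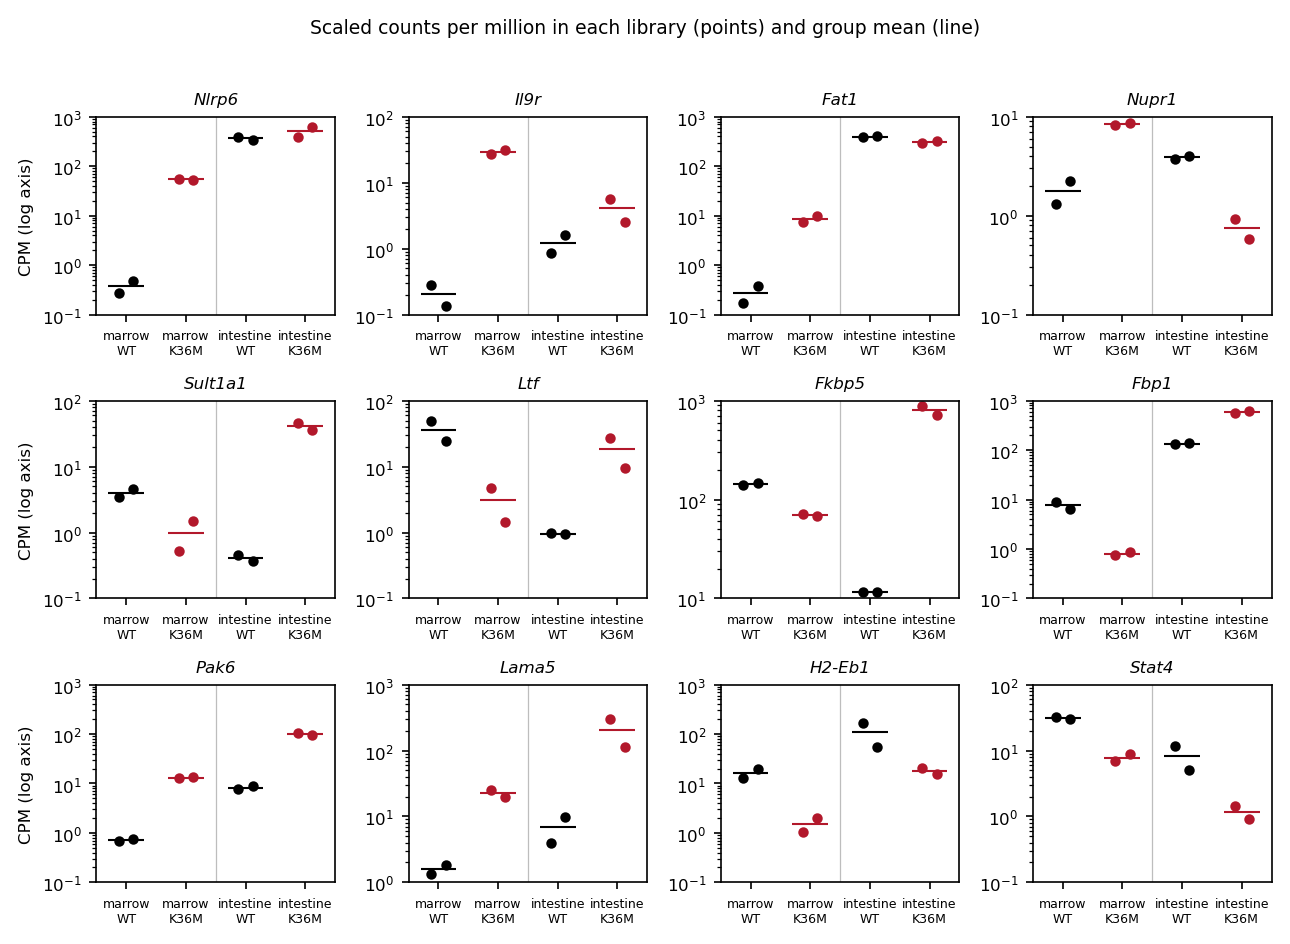
Scaled CPM on log axes for 12 genes, with 1 point per library, black for WT and red for K36M, and a line at the group mean. The top row holds genes with a higher effect in marrow, the middle row genes with a lower effect in marrow, and the bottom row genes that changed the same way in both tissues.

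Among the 339 genes called in opposite directions were Fbp1 and Ltf. Fbp1, the gluconeogenic enzyme fructose-1,6-bisphosphatase, fell in marrow from 8.75 and 6.42 CPM to 0.742 and 0.863 and rose in intestine from 130.8 and 139.4 to 570.8 and 610.7. WT and K36M libraries of Fbp1 did not overlap in either tissue, and the difference was -5.36 ± 0.27 (adjusted p = 0.00042). Ltf, the iron-binding lactoferrin of neutrophil granules, fell in marrow from 48.8 and 24.2 CPM to 4.75 and 1.44 and rose in intestine from 0.981 and 0.936 to 27.3 and 9.49. Tlr12, a Toll-like receptor for profilin, fell in marrow by 2.83 ± 0.58 on the log2 scale and rose in intestine by 3.40 ± 0.64. Fmnl2, an actin-nucleating formin, fell by 2.63 ± 0.48 in marrow and rose by 3.20 ± 0.62 in intestine. Jaml, a leukocyte adhesion molecule, and Dnal1, a light chain of axonemal dynein, followed the same order with differences of -4.60 ± 0.48 and -5.00 ± 0.71.

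In the reverse order, Nupr1, a stress-inducible chromatin protein, rose in marrow from 1.32 and 2.23 CPM to 8.35 and 8.63 and fell in intestine from 3.73 and 4.03 to 0.930 and 0.578. Unc5cl, a death-domain protein of epithelial cells, rose in marrow from 1.36 and 2.20 CPM to 17.4 in both K36M libraries and fell in intestine from 73.2 and 85.9 to 18.1 and 32.9. Tspo2, a cholesterol-binding protein of erythroid cells, rose in marrow from 12.1 and 17.6 CPM to 94.5 and 108.4 and fell in intestine from 2.75 and 4.40 to 1.34 and 0.908. Vstm5 and Sec14l2 completed the named genes of this order, with differences of 4.66 ± 0.55 and 3.06 ± 0.48. Promoters of the 151 matched genes that fell in marrow and rose in intestine had a median of 13 CpG, against 17 in the 124 of the reverse order.

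Some genes moved alike. Pak6, a p21-activated kinase, rose from 0.695 and 0.743 CPM to 12.7 and 13.5 in marrow and from 7.78 and 8.71 to 102.5 and 94.5 in intestine. Lama5, a laminin chain of epithelial basement membranes, rose by 3.83 ± 0.60 in marrow and 4.94 ± 0.60 in intestine. Camk2b, a calcium-dependent kinase, and Ltbp4, which binds latent TGF-beta, were also higher in both. H2-Eb1, a chain of MHC class II, fell from 12.6 and 19.7 CPM to 1.04 and 2.01 in marrow and from 169.9 and 55.0 to 20.4 and 15.2 in intestine. Stat4, Il2rb, a receptor chain for interleukins 2 and 15, and Fzd7, a Wnt receptor, fell in both tissues as well, Fzd7 by 2.76 ± 0.35 and 2.92 ± 0.38. These genes were named because the difference was not called (adjusted p above 0.05), which does not show that the effects were equal: for Ltbp4 the estimate was -2.07 ± 0.88.

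Among 52 gene lists, lysosome genes had the most called differences in 1 direction. Of 28 tested lysosome genes, 12 had a lower effect in marrow and 0 a higher one, against 11.3% and 11.2% of all genes. The median effect was -0.26 in marrow and 0.63 in intestine, where it was 0.02 and -0.02 over all genes. Ctsh, the protease cathepsin H, fell in marrow from 55.1 and 43.0 CPM to 24.1 and 19.98 and rose in intestine from 80.4 and 57.4 to 175.9 and 191.9. Ctsl, cathepsin L, had 12.4 to 15.7 CPM in all 4 marrow libraries and rose in intestine from 52.0 and 73.0 to 227.2 and 212.2. Scarb2, a lysosomal membrane receptor, fell by 0.42 ± 0.12 in marrow and rose by 0.82 ± 0.12 in intestine. Neu1, the lysosomal sialidase, rose in intestine by 1.64 ± 0.20 and was not called in marrow. Psap and Npc2, which act in lipid handling, and Grn, progranulin, reached their calls through falls in marrow of 0.97 ± 0.15, 0.72 ± 0.15 and 1.16 ± 0.18.

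The lysosome count was 12 lower and 0 higher with limma-voom weights as well. It was 5 lower without marrow mouse WT.1262, H3K36M.1310 or H3K36M.1312, and 8 lower without intestine mouse WT.1476. Summed granulocyte and monocyte markers moved with it in marrow: 32 genes, none at 0, totalled 23246 and 18331 CPM in wildtype and 6431 and 4738 in K36M marrow. In intestine that sum was 357 and 354 CPM in wild type and 390 and 335 in K36M, with 6 to 9 members at 0. The part of these cells in the marrow values was not tested, and in bulk RNA fewer cells of a type and less RNA per cell cannot be told apart.

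**Figure D3:**
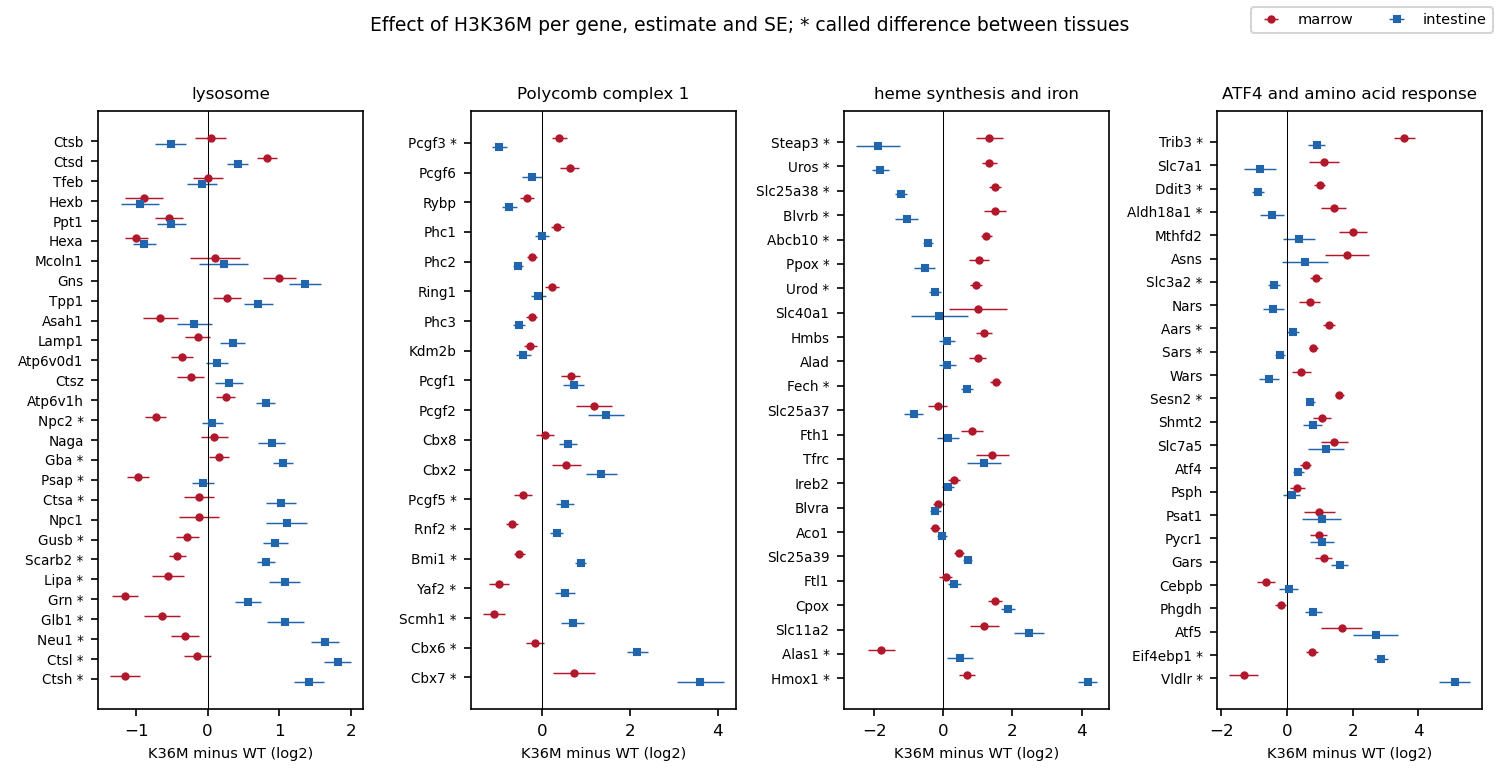
K36M minus WT log2 fold change with its SE for tested members of 4 gene lists, red circles for marrow and blue squares for intestine, ordered by the difference. Stars mark called differences, such as Ctsh at the bottom of the lysosome panel and Trib3 at the top of the ATF4 panel.

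Glycolysis genes leaned the same way, with 7 lower and 2 higher of 18 tested, against 11.3% and 11.2% of all genes. Pdk1, the kinase that turns off pyruvate dehydrogenase, fell in marrow from 94.7 and 88.3 CPM to 45.0 and 49.7 and rose in intestine from 40.9 and 35.4 to 83.0 and 82.0. Pfkfb4, which sets the level of a glycolytic activator, fell by 1.06 ± 0.13 and rose by 0.75 ± 0.13. Slc16a3, the lactate exporter, went the other way: it rose in marrow from 12.0 and 8.89 CPM to 55.2 and 49.0 and had 60.0 to 90.4 CPM in the 4 intestine libraries. The count fell to 2 lower without marrow mouse WT.1262 or H3K36M.1312, 3 without WT.1266 and 4 without H3K36M.1310.

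Subunits of Polycomb repressive complex 1 (PRC1), which ubiquitinates histone H2A, had a lower effect in marrow in 8 of 20 tested genes and a higher one in 1. The shares over all genes were 11.3% and 11.2%. Bmi1, a core PRC1 subunit, fell in marrow from 55.3 and 51.1 CPM to 36.6 and 37.8 and rose in intestine from 26.0 and 28.5 to 49.1 and 51.0. Rnf2, the ligase subunit, fell by 0.68 ± 0.15 in marrow and had an effect of 0.34 ± 0.15 in intestine that was not called. Scmh1 and Yaf2 likewise fell in marrow and were not called in intestine. The chromodomain subunits Cbx6 and Cbx7 rose in intestine by 2.17 ± 0.24 and 3.61 ± 0.54 and were not called in marrow. Pcgf3, a paralog of Bmi1, was the exception, with a fall of 0.97 ± 0.17 in intestine. The 8 lower became 2 without marrow mouse WT.1262, H3K36M.1310 or H3K36M.1312 and 5 without WT.1266, and remained a count of 8 with limma-voom weights.

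Of PRC2, which writes H3K27me3, 3 of 10 tested subunits differed, 1 higher and 2 lower, against 22.5% of all genes. The count was 1 without marrow mouse H3K36M.1310 or H3K36M.1312 and 5 without intestine mouse H3K36M.1553. Epop, an accessory subunit, had 0.392 and 0.655 CPM in wildtype and 14.3 and 11.6 in K36M intestine and 9.93 to 14.0 in marrow, a difference of -4.31 ± 0.40. Ezh2, the catalytic subunit, fell in intestine from 35.3 and 26.9 CPM to 8.68 and 14.0 and had 161 to 178 CPM across the marrow libraries. Aebp2, another accessory subunit, rose in intestine from 61.7 and 59.1 CPM to 113.0 and 111.7. Jarid2, which helps recruit PRC2, fell in both tissues, by 0.93 ± 0.12 and 1.32 ± 0.13.

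The enzymes that H3K36M inhibits showed no called difference in the fit reported here. Under at least 1 alternative a difference was called for Nsd3, for Setd2 and for the H3.3 gene H3f3a. Nsd1 rose in both tissues, from 261.8 and 255.8 CPM to 348.9 and 348.4 in marrow and from 216.9 and 206.2 to 320.0 and 333.5 in intestine, and the effects differed by -0.20 ± 0.16 (adjusted p = 0.43). Setd2 had effects of 0.08 ± 0.14 in marrow and 0.44 ± 0.14 in intestine, where it passed the test. Nsd3 fell in intestine by 0.52 ± 0.12 and had an effect of -0.04 ± 0.12 in marrow, and Nsd2 was not called in either tissue. The genes of endogenous H3.3, H3f3a and H3f3b, were not called in either tissue, with marrow effects of 0.14 ± 0.16 and 0.31 ± 0.13 and intestine effects of -0.46 ± 0.16 and 0.21 ± 0.13. The counts do not separate the transgene from endogenous H3 genes. Among 26 tested enzymes and readers of H3K36 methylation, Psip1 and Setd3 had a higher effect and Dnmt3b and Zmynd11 a lower effect in marrow. These 4 are a smaller share than the 22.5% called over all genes. The count was 0 without marrow mouse WT.1262 or H3K36M.1312, 1 without H3K36M.1310 or either wildtype intestine mouse, 2 without WT.1266 or with limma-voom weights, 6 without intestine mouse H3K36M.1553 and 8 without H3K36M.1485. Dnmt3b, a DNA methyltransferase that binds methylated H3K36, rose in intestine from 1.5 and 1.31 CPM to 3.62 and 5.70 and had 41.2 to 44.9 CPM across marrow. Its adjusted p of 0.012 became 0.059 with limma-voom weights, and the call was also lost without WT.1262, H3K36M.1310, H3K36M.1312 or WT.1477. Zmynd11, a reader of H3K36me3 on H3.3, fell in marrow from 86.3 and 87.9 CPM to 53.3 and 52.5 and had 68.2 to 74.4 CPM in intestine.

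Of 23 tested heme synthesis and iron genes, 10 were higher and 1 lower in K36M marrow, 5 higher and 4 lower in intestine, and 8 had a higher and 2 a lower effect in marrow. The shares over all genes, higher and lower, were 9.56% and 9.89% in marrow, 16.5% and 17.3% in intestine, and 11.2% and 11.3% for the difference. The median effect on the heme and iron genes was 1 in marrow and 0.10 in intestine. Slc25a38, the mitochondrial glycine importer, rose in marrow from 25.6 and 33.6 CPM to 82.4 and 83.6 and fell in intestine from 26.6 and 29.2 to 12.9 and 10.9. Uros, the enzyme that closes the porphyrin ring, rose in marrow from 18.9 and 29.5 CPM to 61.5 and 60.2 and fell in intestine from 16.6 and 17.0 to 4.65 and 4.79. Urod, Ppox and Abcb10, further along heme assembly, rose in marrow by 0.94 ± 0.18, 1.03 ± 0.29 and 1.24 ± 0.15 and were not called in intestine. Fech, which inserts the iron, rose in both tissues. Alas1, the housekeeping first enzyme, went against the rest with a fall of 1.80 ± 0.38 in marrow. Hmox1, which breaks heme down, had 1.18 and 1.03 CPM in wildtype and 21.2 and 19.2 in K36M intestine and a difference of -3.50 ± 0.35.

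Erythroid markers moved with the heme genes in marrow: 29 markers, of which 1 was at 0 in each marrow library, totalled 2640 and 4578 CPM in wildtype and 6724 and 7292 in K36M. Their part in the heme values was not tested. The 8 higher became 4 without marrow mouse WT.1262, H3K36M.1310 or H3K36M.1312, and 5 without intestine mouse WT.1477 or with limma-voom weights.

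Genes of the amino acid response, which the factor ATF4 drives when amino acids are short or translation is impaired, were higher in K36M marrow in 14 of 24 and lower in 0. In intestine 6 were higher and 1 was lower. Of all genes, 9.56% were higher and 9.89% lower in marrow, and 16.5% and 17.3% in intestine. The effect of the list's genes was higher in marrow in 7 and lower in 2, against 11.2% and 11.3% of all genes. The medians were 0.99 in marrow and 0.45 in intestine. Trib3, a pseudokinase induced by ATF4, had 0.625 and 1.32 CPM in wildtype and 12.9 and 10.4 in K36M marrow, and rose in intestine from 27.5 and 33.3 to 58.6 and 55.3. Ddit3, the stress factor CHOP, rose in marrow from 11.6 and 11.2 CPM to 23.1 and 22.2 and fell in intestine from 29.8 and 37.9 to 19.8 and 16.7. Sesn2, a leucine sensor, rose by 1.59 ± 0.14 in marrow and 0.71 ± 0.14 in intestine. Aars and Sars, which charge alanine and serine tRNAs, rose by 1.27 ± 0.17 and 0.80 ± 0.14 in marrow and were not called in intestine. Vldlr, a lipoprotein receptor, went against the list, with 2.16 and 4.87 CPM in wildtype and 151.5 and 84.3 in K36M intestine and a difference of -6.43 ± 0.63. Eif4ebp1, a brake on translation, rose in both tissues, by 0.75 ± 0.18 in marrow and 2.87 ± 0.20 in intestine.

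The 7 higher were 10 with limma-voom weights, 13 without intestine mouse H3K36M.1553, 2 without marrow mouse WT.1262 or H3K36M.1312, 3 without H3K36M.1310 and 4 without WT.1266 or intestine mouse WT.1476. The amino acid response element was searched as TGATGNAAN on both strands of the 250 bases before the start. It occurred in 4 of the 20 list members with a promoter in the table (20%), Aars, Asns, Gars and Pycr1, in 1.9% of the 8759 tested genes with a promoter and in 3.44% of all promoters. The promoters of Aars (chr8:111033592-111033841, plus strand) and Asns, asparagine synthetase (chr6:7693210-7693459, minus strand), are printed from RefSeq GRCm38.p6, 5′ to 3′, because they show the match in each orientation, in capitals.
Aars: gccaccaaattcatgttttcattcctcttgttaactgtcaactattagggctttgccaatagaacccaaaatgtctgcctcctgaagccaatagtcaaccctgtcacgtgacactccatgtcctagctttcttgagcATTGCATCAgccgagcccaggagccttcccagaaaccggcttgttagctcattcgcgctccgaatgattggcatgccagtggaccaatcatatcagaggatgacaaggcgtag
Asns: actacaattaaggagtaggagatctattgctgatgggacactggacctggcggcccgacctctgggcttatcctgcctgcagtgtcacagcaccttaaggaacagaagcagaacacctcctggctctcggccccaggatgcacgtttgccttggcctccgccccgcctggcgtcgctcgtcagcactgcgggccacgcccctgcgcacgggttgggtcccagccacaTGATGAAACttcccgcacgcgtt
Asns itself did not pass the test in either tissue, with 53.2 and 81.3 CPM in wildtype and 211.0 and 268.2 in K36M marrow. Aars rose in marrow from 134.5 and 146.7 CPM to 341.0 and 338.7 and had 102.8 to 143.2 CPM in intestine. A match describes these letters and not a bound site.

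Other stress programmes held some called differences. All 4 called differences among 17 heat shock chaperones were higher in marrow, through falls in intestine. The called share of 23.5% was near the 22.5% over all genes. Hspa4l, a member of the Hsp110 family, fell in intestine from 54.5 and 41.3 CPM to 8.58 and 10.2 and had 83.1 to 99.5 in marrow. Hsph1, Chordc1 and Fkbp4, partners of Hsp70 and Hsp90, fell in intestine by 2.05 ± 0.36, 1.83 ± 0.19 and 1.26 ± 0.29. Without intestine mouse H3K36M.1553 the count was 10. Targets of the antioxidant factor NRF2 gave 6 higher and 3 lower of 18, and 3 higher without marrow mouse WT.1262 or H3K36M.1312. The called share of NRF2 targets was 50%, against 22.5% of all genes. Srxn1, sulfiredoxin, rose in marrow from 3.96 and 5.61 CPM to 18.4 and 18.1, and Gclm and Nqo1 rose there by 1.44 ± 0.23 and 2.61 ± 0.33, with none of these called in intestine. Prdx1 and Nfe2l2, which encodes NRF2 itself, fell in intestine by 1.12 ± 0.15 and 0.85 ± 0.13.

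Targets of p53 divided 6 higher to 4 lower of 29, and 1 or 2 were lower without marrow mouse WT.1262, H3K36M.1310 or H3K36M.1312. The called share of p53 targets was 34.5%, against 22.5% of all genes. Zmat3, an RNA-binding p53 target, rose in marrow from 3.61 and 5.2 CPM to 26.0 and 22.3 and fell in intestine from 18.6 and 24.2 to 11.1 and 9.99. Bbc3, the cell death inducer PUMA, rose in marrow from 3.58 and 3.72 CPM to 11.3 and 12.4 and fell in intestine from 9.35 and 7.58 to 4.65 and 4.13. Cdkn1a, the cell cycle inhibitor p21, rose in both, from 9.10 and 7.20 CPM to 42.5 and 28.7 in marrow and from 282.4 and 399.8 to 835.5 and 746.3 in intestine, and its difference was not called (0.91 ± 0.35, adjusted p = 0.11). Cdkn2b, the inhibitor p15, was counted 1 time in wildtype and 44 times in K36M marrow, a ratio of 50.1 (8.54 to 2024, 95% counting interval), and fell in intestine from 118.8 and 114.6 CPM to 26.9 and 49.6.

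Immediate early genes, which respond within minutes to growth and stress signals, had a lower effect in marrow in 5 of 21 and a higher one in 1, Socs3. The shares over all genes were 11.3% lower and 11.2% higher. Fos fell in both tissues, from 35.2 and 46.2 CPM to 4.68 and 4.97 in marrow and from 343 and 460 to 144 and 168 in intestine. Klf4 fell in marrow from 30.7 and 22.2 CPM to 3.42 and 2.18 and had 429 to 682 CPM in intestine. Dusp1, a phosphatase of MAP kinases, rose in intestine from 11.3 and 10.5 CPM to 72.8 and 119.5 and had an effect of -1.03 ± 0.32 in marrow that was not called. Without intestine mouse H3K36M.1485 the lower calls were 9, and without marrow mouse H3K36M.1312 they were 3.

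Of 23 TGF-beta pathway genes, 5 had a lower and 2 a higher effect in marrow, where 11.3% and 11.2% of all genes did (2 lower without WT.1262 or H3K36M.1312, 3 without WT.1266, H3K36M.1310, WT.1477 or H3K36M.1485). The receptor Tgfbr1 fell in marrow from 50.7 and 42.9 CPM to 18.2 and 19.3 and had 27.5 to 36.1 in intestine. Tgfbr2 rose in intestine by 1.40 ± 0.24 and was not called in marrow, with an effect of -0.72 ± 0.23. Of 16 Notch pathway genes, 4 had a higher and 1 a lower effect (2 higher without H3K36M.1310). Notch1 fell in marrow from 96.5 and 77.1 CPM to 48.4 and 43.6 and rose in intestine from 7 and 3.65 to 11.6 and 14.4, whereas its ligand Jag1 rose in marrow by 0.81 ± 0.23 and fell in intestine by 0.90 ± 0.21. Adam10, the protease that activates Notch, fell in intestine from 158.9 and 184.1 CPM to 81.6 and 89.2. Lrp5, a Wnt co-receptor, fell in marrow by 0.94 ± 0.14 and had an uncalled effect of 0.43 ± 0.14 in intestine. Tnfaip2, an NF-kB target, rose in both tissues, by 1.35 ± 0.18 in marrow and 4.11 ± 0.24 in intestine.

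Cholesterol genes had 4 higher and 0 lower differences of 22 (18.2%, against 22.5% of all genes), with medians of 0.68 in marrow and -0.20 in intestine. Tm7sf2 and Dhcr7, which act on sterol double bonds, fell in intestine by 1.52 ± 0.21 and 1.16 ± 0.18 and were not called in marrow. The count was 14 without intestine mouse H3K36M.1553, 2 without marrow mouse WT.1262, 0 without H3K36M.1310, and 1 without WT.1266, H3K36M.1312 or either wildtype intestine mouse.

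Core machinery gave few called differences. By edgeR's quasi-likelihood test, none of 49 cytosolic ribosomal proteins, 33 ribosome biogenesis genes, 35 complex I subunits, 31 proteasome genes, 31 spliceosome genes and 19 histone chaperones had a called difference, against 22.5% of all genes. In that order, 4, 3, 1, 7, 4 and 1 members had an unadjusted p under 0.05, 4, 2, 0, 2, 1 and 0 were called by DESeq2, and 2, 0, 0, 2, 0 and 0 with limma-voom weights. Members of the same lists were called within a tissue: 9 proteasome genes and 3 ribosome biogenesis genes were higher in K36M marrow and 5 ribosome biogenesis genes in K36M intestine. Of all genes, 9.56% were higher in marrow and 16.5% in intestine. Though uncalled, the cytosolic ribosomal proteins leaned 1 way: 0 of 49 had a difference above 0. Their median difference was -0.42, with median effects of -0.13 in marrow and 0.29 in intestine, as a description over genes that share libraries. Rpl4 had 1836 to 2045 CPM in marrow and 388.8 to 815.8 in intestine, with no call. Prpf8, the central spliceosome protein, rose in marrow from 605.8 and 630.1 CPM to 1039 and 1105. Without intestine mouse H3K36M.1553, 13 proteasome genes and 16 of 34 mitosis genes had a called higher effect in marrow, where 0 of each did with it. Of the mitosis list only Pttg1, securin, had a call, at -0.95 ± 0.24 (adjusted p = 0.028), and it was lost in 6 of the 8 fits that leave out a library. Pttg1 went against its list, in which 30 of 34 differences were above 0. The list's median difference was 0.67, against 0.05 over all genes, with median effects of 0.45 in marrow and -0.14 in intestine.

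DNA replication genes divided 3 higher to 5 lower of 38, near the share over all genes of 22.5% (2 and 2 with limma-voom weights, and 1 lower without any 1 marrow library or intestine mouse WT.1477, and 7 higher and 6 lower without H3K36M.1553). Rrm2, a subunit of ribonucleotide reductase, rose in intestine from 14.7 and 6.18 CPM to 473.1 and 258.5 and had 207 to 268 CPM in marrow, where it was not called. Mcm2, of the replicative helicase, rose in intestine by 2.49 ± 0.46. Pola2, of DNA polymerase alpha, fell there by 0.58 ± 0.14. The unfolded protein response was lower in both tissues by its medians, -0.44 in marrow and -0.46 in intestine. Among 23 tested members, 4 were called lower and 0 higher in marrow, and 6 lower and 1 higher in intestine. The shares over all genes were 9.89% lower and 9.56% higher in marrow, and 17.3% and 16.5% in intestine. Only Herpud1 had a called difference, against 22.5% of all genes. It rose in intestine from 173.2 and 286.6 CPM to 817.3 and 598.4. Of 12 tested genes of antigen presentation by MHC class II, 4 were lower and 1, Ifi30, higher in K36M marrow, and 5 were lower in intestine. Of all genes, 9.56% were called higher and 9.89% lower in marrow, and 16.5% and 17.3% in intestine. The effect was called higher in marrow for Ifi30 and Rfxank. Without any 1 of the 4 marrow libraries neither difference was called, and Ifi30 also lost its call without intestine mouse WT.1477. Of 36 interferon-stimulated genes only Ifi35 differed (2.8%, against 22.5% of all genes), rising in marrow by 0.54 ± 0.14 and falling in intestine by 0.61 ± 0.14. Without intestine mouse H3K36M.1553, 11 of them had a higher effect in marrow, and without mouse H3K36M.1485, 8 had a lower one.

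**Figure D4:**
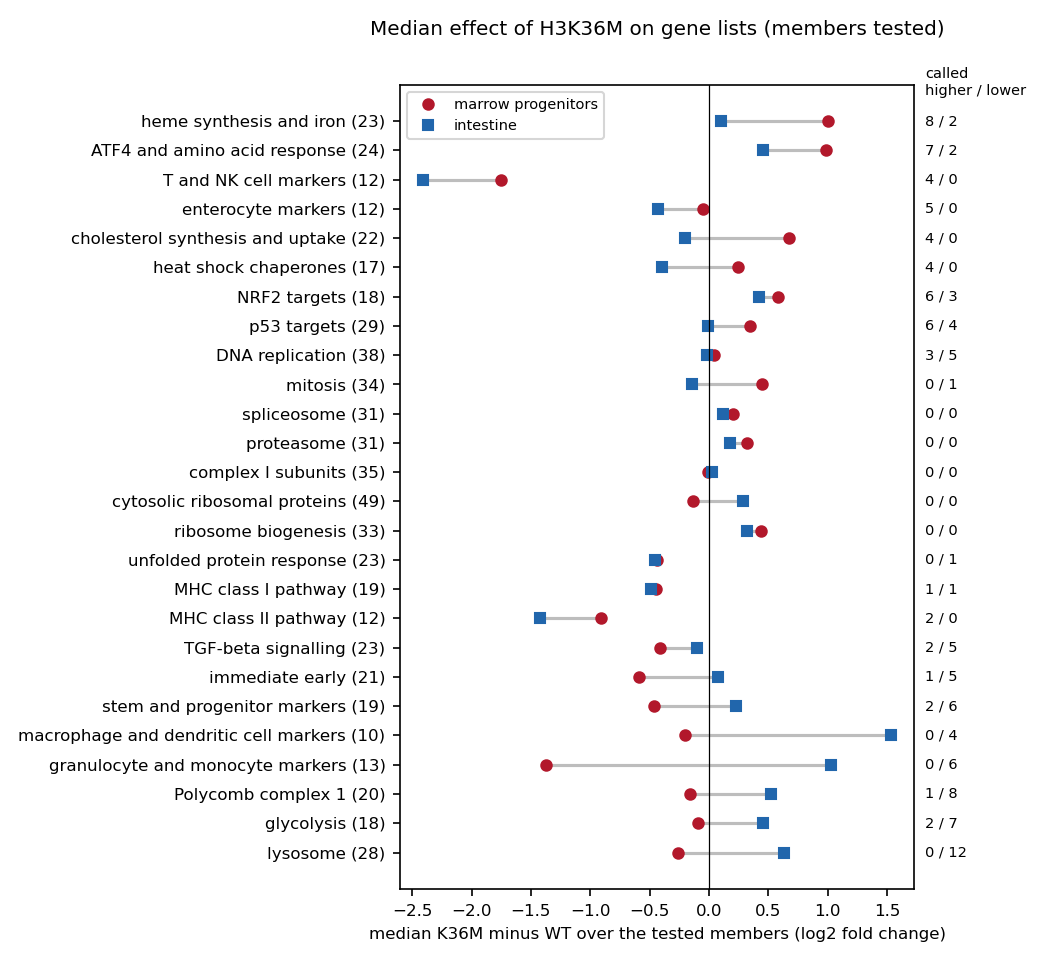
Median K36M minus WT log2 fold change over the tested members of 26 gene lists, red circles for marrow and blue squares for intestine, with the number tested in parentheses. The columns at the right give members with a higher and a lower effect in marrow, from 0 and 12 for lysosome to 8 and 2 for heme synthesis and iron.

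Markers of mature cells moved in each tissue. In K36M marrow, 9 of 13 tested granulocyte and monocyte markers were lower and 0 higher, while in intestine 4 were higher and 2 lower, and 6 had a lower and 0 a higher effect in marrow. Of all genes, 9.89% were lower in marrow, 16.5% were higher and 17.3% lower in intestine, and 11.3% had a lower effect in marrow. Cebpa, the granulocyte-determining factor, fell in marrow from 166.1 and 133.7 CPM to 62.2 and 52.5 and rose in intestine from 49.95 and 37.9 to 111.6 and 107.9. Csf1r, the receptor of macrophages, fell in marrow from 179.7 and 117.3 CPM to 49.7 and 58.2 and in intestine had 1.64 and 0.562 CPM in wild type and 14.9 and 9 in K36M. With limma-voom weights 3 of the 6 granulocyte and monocyte calls were made. Hdc, which makes histamine, fell in marrow by 1.52 ± 0.35 and rose in intestine by 4.55 ± 0.41. It was 1 of only 2 tested members of 19 mast cell, basophil and eosinophil markers, and the other was called the opposite way in both tissues. Of 19 stem and progenitor markers 6 had a lower and 2 a higher effect in marrow (3 and 0 with limma-voom weights, and 1 or 2 lower without any 1 marrow library or intestine mouse WT.1477). The shares over all genes were 11.3% lower and 11.2% higher. Hlf, a stem cell factor that is also clock-controlled, had 25.7 to 28.9 CPM in marrow and rose in intestine from 14.2 and 19.5 to 99.3 and 70.8.

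T and NK cell markers were lower in both tissues, with 6 of 12 called lower in marrow and 10 in intestine, and 4 (Lck, Zap70, Nkg7 and Itgae) had a called higher effect in marrow. The matching shares over all genes were 9.89%, 17.3% and 11.2%. Lck, a kinase of the T cell receptor, had 12.4 and 16.6 CPM in wildtype and 2.48 and 2.23 in K36M intestine and 3.96 to 6.35 in marrow. In intestine the 27 markers totalled 484 and 458 CPM in wild type and 80.1 and 59.7 in K36M. The 4 calls became 2 with limma-voom weights, 2 with library size alone or without intestine mouse H3K36M.1553, and 1 without marrow mouse WT.1262, H3K36M.1310 or H3K36M.1312 or either wildtype intestine mouse. Markers of goblet cells, which secrete mucus, were also lower in K36M intestine: 20 markers totalled 11652 and 12428 CPM in wild type and 1257 and 1694 in K36M, with at most 1 at 0. Muc2, the main mucin, fell in intestine from 1314 and 1641 CPM to 52.9 and 91.7. In marrow Muc2 was near 0, with 3 counts in wild type and 26 in K36M, a ratio of 9.87 (3.03 to 51.0, 95% counting interval). Of 12 enterocyte markers 5 had a higher effect in marrow (2 without H3K36M.1310 or H3K36M.1312, 1 without WT.1262 and 3 without WT.1266). A higher effect was called in 11.2% of all genes. Of the 5 enterocyte markers, Sis and Lct, the sucrase and lactase of the brush border, fell in intestine by 0.69 ± 0.14 and 2.38 ± 0.26. Whether such shifts in cell types contributed to the other differences was not tested.

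Endothelial and stromal markers reached their calls at low levels in intestine. Of 18 endothelial and 26 fibroblast markers listed, 7 and 10 were tested. All 3 calls among the 7 endothelial and all 3 among the 10 fibroblast markers were a lower effect in marrow, against 11.3% of all genes. A gene could pass the count filter in a tissue through 1 genotype alone, as Tie1 did with 5 counts in wildtype and 61 in K36M intestine. The direction of such calls was therefore partly set by the filter. Without intestine mouse H3K36M.1553 the lower effect was called in 6 endothelial and 5 fibroblast markers. It was called in 1 fibroblast marker with limma-voom weights, without any 1 marrow library or without either wildtype intestine mouse, and in 2 without H3K36M.1485. Tie1, an endothelial receptor, fell in marrow from 34.0 and 30.0 CPM to 12.1 and 12.0 and had 0.327 and 0 CPM in wildtype and 3.62 and 2.15 in K36M intestine. Among 12 imprinted genes 3 had a higher and 1 a lower effect, against 11.2% and 11.3% of all genes. The higher calls were 2 without marrow mouse WT.1262 or H3K36M.1310 and 1 without H3K36M.1312 or either wildtype intestine mouse. Peg3, a zinc finger protein, had 0 and 0.236 CPM in wildtype and 14.4 and 14.2 in K36M marrow and 2.71 to 8.34 in intestine. Sgce was the lower one, with no count in wildtype intestine and 42 in K36M intestine, at least 16.7-fold higher against a floor of 3 counts over the group, and with 1.69 to 1.88 CPM in wildtype and 0.557 to 0.822 in K36M marrow.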

How the data were processed

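RNA-seq read counts per gene were used from 8 libraries, 2 in each of 4 groups. The deposited files hold raw counts, whole numbers of reads per gene. The submitters' processing notes name STAR, HTSeq and the mouse build mm9. Versions, annotation and strand setting are not given in the sources used here, so reads of overlapping antisense genes cannot be told apart. Libraries were made from polyA RNA, per the labels. Entries that name no gene (5 a file) were left out of all totals. They held 9.89 to 17.3% (no feature), 2.39 to 4.17% (ambiguous) and 22.2 to 28.5% (not unique) of all entries.

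Gene names and chromosomes came from GENCODE M21 by gene ID: 32897 of 37620 IDs matched. Genes passed edgeR's filterByExpr (minimum count 10) within each tissue: 11855 passed in both, of which 358 on X or Y and 270 without annotation were left out. Group means were fitted with edgeR 4.0.16 (R 4.3.3; TMM factors, robust quasi-likelihood, 4 residual degrees of freedom), with Benjamini-Hochberg adjustment over all 11227 genes and a threshold of 0.05. The SE is the absolute log2 estimate divided by the square root of F. The fit was tested on simulated data with a single spread for all genes and both tissues, so the unequal spread of marrow and intestine was not covered. Alternatives used DESeq2 1.42.0, limma 3.58.1 (voom), other scalings, filters, thresholds and sample sets, and each library left out in turn. Fitting each tissue on its own, and TMM over the tested genes' totals, were added after seeing the data.

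Named genes were the 6 largest differences each way with at least 10 counts in each group and a mean log2 CPM of at least 1 in each tissue, 6 opposite genes each way, 4 each way called in both tissues with an adjusted p above 0.05 for the difference, from each list the member whose difference had the lowest adjusted p (or, with no call, its most abundant member), and 6 genes of H3.3 and the K36 enzymes. Other list members, and the gene-promoter pairs printed, were chosen after their values were seen. The comparison, lists and rule were chosen with earlier results of these data known. Counting intervals and the 3-count floor cover counting error only. Promoters came from RefSeq (GRCm38.p6) by symbol. Some genes of the lists are counted but not reported here by name.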

Additional observations from a re-analysis of the deposited data

Results flagged for a closer look

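Of the 84 named genes, 63 had a K36M effect that differed between marrow and intestine by edgeR's quasi-likelihood test of the difference, and these are given as the marrow effect minus the intestine effect on the log2 scale, with no explanation weighed. The largest negative differences were Sgce -9.65, Sult1a1 -8.60, Ltf -7.79, Nrp1 -7.54, Fkbp5 -7.14, Thbs1 -6.88, Scd1 -6.81, Col4a1 -6.55, Cxcl12 -6.47, Vldlr -6.43, Tlr12 -6.23 and Hdc -6.07. Further negative differences were Fmnl2 -5.83, Fbp1 -5.36, Ptgs1 -5.36, Tie1 -5.27, Dnal1 -5.00, Csf1r -4.80, Rrm2 -4.78, Jaml -4.60, Epop -4.31, Dusp1 -4.17, Trim10 -4.10 and Hmox1 -3.50. The remaining negative differences were Cd79b -2.80, Tnfaip2 -2.75, Cebpa -2.70, Ctsh -2.57, Hlf -2.28, Herpud1 -2.09, Pdk1 -2.06, Dnmt3b -1.74, Tgfbr1 -1.57, Bmi1 -1.40, Lrp5 -1.37 and Pttg1 -0.95. The largest positive differences were Tcrg-C1 8.65, Muc2 7.51, Cdkn2b 6.81, Nlrp6 6.68, Dnase1 5.6, Aqp3 5.40, Il9r 5.33, Fat1 5.31, Unc5cl 4.92, Vstm5 4.66, Nupr1 4.63, Tspo2 4.43, Zmat3 3.47 and Hnf4a 3.38. The remaining positive differences were Sec14l2 3.06, Lck 2.92, Slc25a38 2.72, Bbc3 2.65, Hspa4l 2.51, Gadd45g 2.47, Hist2h2be 1.81, Tm7sf2 1.46, Adam10 1.29, Ifi35 1.15, Psme2 1.06, Kdm6b 0.98 and Ifi30 0.85. The fitted values of Sgce, Cdkn2b and Muc2 rest on a group with 0 to 3 counts, so they depend on the prior count and are no bound. Cxcl12 (SE 1.24) had 4 counts in wildtype intestine and 8 in K36M marrow, and Trim10 had 6 in wildtype intestine. Thbs1 (SE 1.32) had 8 counts in wildtype intestine, and 4.27 and 20.1 CPM in wildtype marrow. With limma-voom weights Thbs1, Cd79b and Trim10 were not called (adjusted p of 0.174, 0.165 and 0.075). Groups of 2 libraries are too small for a test of single outlying samples.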

How the results depend on the processing

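With limma-voom weights per tissue, 5483 genes were called in marrow and 1889 in intestine, and with each tissue fitted on its own 5371 and 1484. With K9M libraries added (12 in the fit), the same and opposite directions held 1034 and 540 genes, and with all 18 libraries 1176 and 618, with 3479 called in marrow. At an adjusted p under 0.01 the counts were 899 differing, 706 in marrow, 1722 in intestine, 149 in the same and 65 in opposite directions. At a 2-fold minimum they were 1267 in marrow, 2112 in intestine, 332 and 153. Leaving out 1 library gave 1025 to 3939 differing genes, 416 to 3754 in marrow, 2359 to 4578 in intestine, 127 to 1152 in the same and 48 to 677 in opposite directions. DESeq2 called 3060 differing genes, edgeR with DESeq2-style size factors 2525, and library size alone 2342. Of the 63 called named genes, 51 kept their call under every alternative that tested them and 12 lost it under at least 1. These 12 were Cd79b, Col4a1, Cxcl12, Dnmt3b, Herpud1, Ifi30, Kdm6b, Psme2, Pttg1, Thbs1, Tm7sf2 and Trim10. In the other direction, H3f3a, Hjurp, Ltbp4, Nsd3, Odf2, Prpf8, Psmd2 and Setd2 had no call and gained one under at least 1 alternative. Signs reversed in 4 named genes that had no call, always on leaving out 1 library. Over all alternatives Fzd7 ranged from -0.33 to 0.88 (-0.08 without marrow mouse WT.1262, -0.05 without H3K36M.1310). Nsd2 ranged from -0.031 to 0.22, Odf2 from -0.25 to 1.61 and Ncl from -0.98 to 0.068. The cause of these changes was not tested, apart from the smaller samples and stricter thresholds named. No paired analysis was possible because the marrow and intestine mice, and the WT and K36M mice, share no replicate number. With a minimum mean of 50 counts in each tissue, 2027 differing genes were called.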

Other observations

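Genes that glucocorticoids are known to induce, listed together with the glucocorticoid receptor gene Nr3c1, were looked at after Fkbp5 was seen. Their counts are therefore a description. Of 13 tested, 8 were higher and 1 lower in K36M intestine and 1 higher and 1 lower in K36M marrow, with median effects of 2.57 and -0.11. Of all genes, 16.5% were higher and 17.3% lower in intestine, and 9.56% and 9.89% in marrow. The effect on the genes of this list was lower in marrow in 6 and higher in 1, against 11.3% and 11.2% of all genes. The 1 higher was Nr3c1, which was also the 1 called lower in intestine. Zbtb16, a zinc finger factor, had 0 and 0.187 CPM in wildtype intestine and 102.4 and 60.4 in K36M intestine. Fatty acid synthesis genes, looked at after Scd1 was seen, divided 3 higher to 3 lower of 14, against 11.2% and 11.3% of all genes.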
